A study of Mus musculus with 12 samples.

Results

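The transcripts of 10 proteoglycan core proteins were followed through 12 RNA-Seq libraries of U2OS cells, a human osteosarcoma line. The genes BGN, DCN, LUM, VCAN, SDC1, SDC2, SDC4, GPC1, GPC6 and HSPG2 were found by their full names among the 58735 genes of the deposited table, and all 10 were present. Levels were read in FPKM, fragments scaled to gene length and library size, which can be compared between genes. With a mean of at least 0.5 FPKM over the libraries, 7 of the 10 core proteins entered the tests, together with 17538 genes in all, while BGN, DCN and VCAN stayed below that level.

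Proteoglycans are core proteins that carry long, negatively charged glycosaminoglycan chains, mostly chondroitin, dermatan or heparan sulfate. Small leucine-rich proteoglycans such as biglycan, decorin and lumican bind collagen fibrils, the large proteoglycan versican binds hyaluronan, and perlecan is built into basement membranes. Syndecans span the plasma membrane and glypicans are held on it by a lipid anchor, and the heparan sulfate of both binds growth factors and matrix proteins. In bone, several of these proteins are laid down in the unmineralized matrix by cells of the osteoblast lineage.

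The libraries formed 4 groups of 3 replicates. Blank cells were the common control, 2 groups carried a small interfering RNA against the splicing factor SRSF1 (siSRSF1-2 and siSRSF1-3), and 1 group overexpressed the long noncoding RNA LINC01134 (OE-LINC01134). The labels name neither a scrambled RNA nor an empty vector for the blank cells, so effects of transfection and of the target cannot be told apart, and the 3 comparisons against blank share the same control libraries. The labels also do not say whether replicates came from separate cultures, so p-values measure only the spread between these libraries. The study's supplementary methods state fewer biological replicates per group than the libraries labelled, while a figure legend of the study names 3 experimental repeats.

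Between 26237763 and 32954539 reads fell on genes in each library. SRSF1 stood at 35.9, 19.8 and 20.5 FPKM in the blank libraries, at 7.09, 7.46 and 7.41 under siSRSF1-2 and at 3.33, 6.81 and 7.90 under siSRSF1-3. LINC01134 stood at 891, 1279 and 878 FPKM in OE-LINC01134 and between 0.496 and 1.11 FPKM in the other 9 libraries, so both targets followed the labels. The replicates were unevenly alike: for blank 2 and 3, OE-LINC01134 1 and 3, and the 3 siSRSF1-2 libraries, the mean squared difference per gene was 2.23 to 3.50 times that of counting noise. Blank 1 and OE-LINC01134 2 stood apart from their groups, at 79.2 to 84.6 times, and pairs of siSRSF1-3 libraries by 154 to 534 times. The osteoblast markers RUNX2, ALPL, COL1A1 and SPP1 were detected in every library. The osteoblast marker BGLAP was low, at 0.0474 to 0.384 FPKM from 2 to 13 reads. The osteoblast markers IBSP and SP7 and the mesenchymal marker COL1A2 were at or near 0. As a list the osteoblast markers summed to 83.4 to 92.5 FPKM in blank, 35.9 to 60.2 in OE-LINC01134, 51.9 to 54.0 under siSRSF1-2 and 49.4 to 57.5 under siSRSF1-3, and the mesenchymal markers to 272 to 318, 118 to 313, 141 to 144 and 116 to 200. The osteoblast sum rested mostly on COL1A1 and SPP1 and the mesenchymal sum on VIM and FN1, and not every gene followed. ALPL was above all blank libraries under both siRNAs. RUNX2 overlapped with blank under siSRSF1-3, as did CDH2 in OE-LINC01134. The part of these differences in the results was not tested. Markers of other cell types were low, with leukocyte markers summing to at most 0.0559 FPKM, endothelial markers to at most 0.558 and epithelial markers, mostly EPCAM, to 1.60 to 2.27 in blank, 2.12 to 2.31 in OE-LINC01134, 1.62 to 1.84 under siSRSF1-2 and 2.92 to 2.99 under siSRSF1-3, which was above all others.

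**Figure D1:**
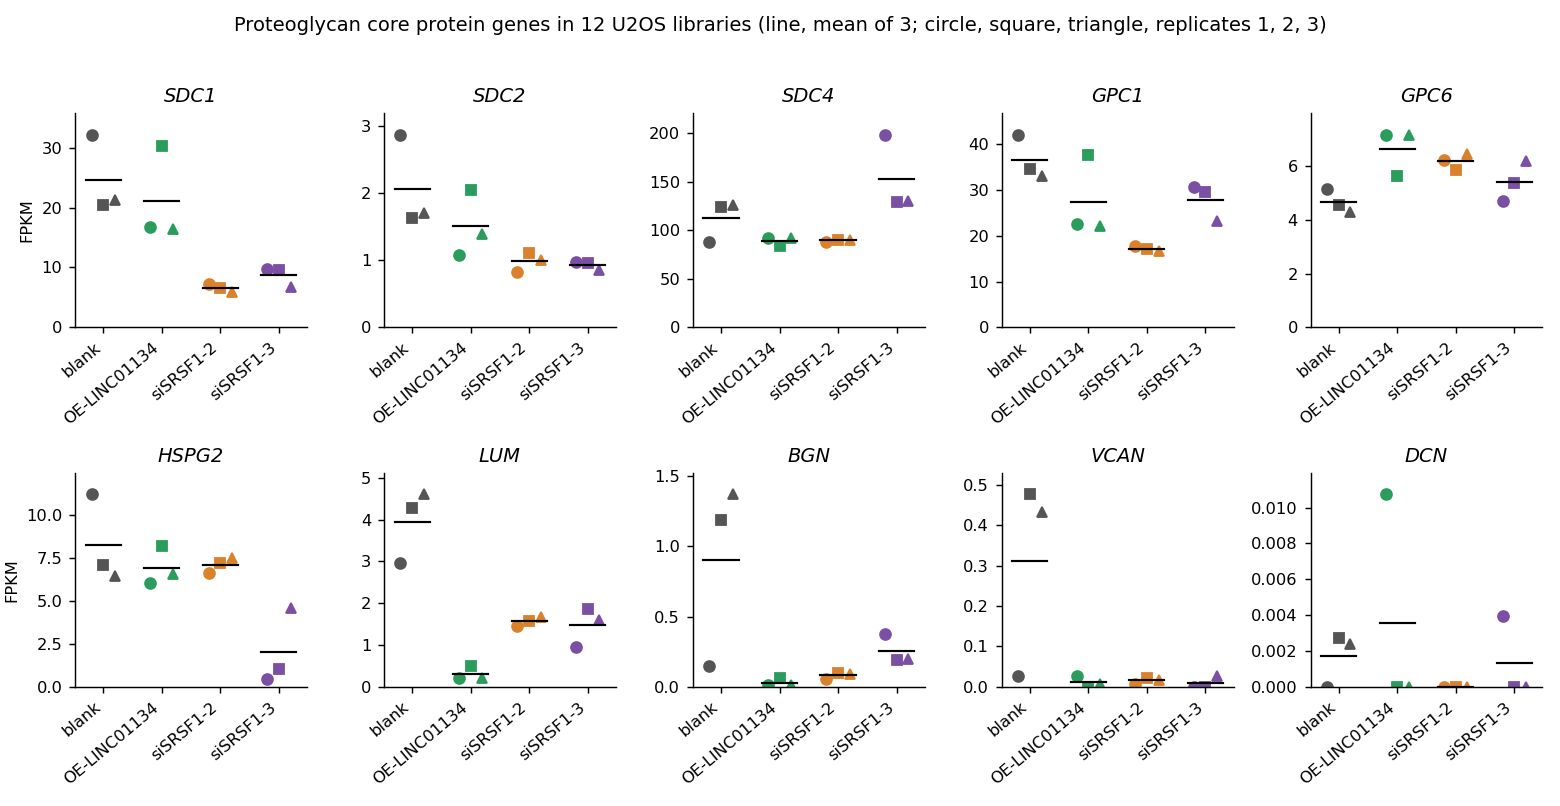
FPKM (vertical axes, each from 0) of the 10 proteoglycan core protein genes in the 4 groups, with 1 point per library and a line at the mean of 3. SDC1 and LUM were below all blank libraries under both siRNAs, LUM was lowest in OE-LINC01134, and HSPG2 was low in siSRSF1-3 replicates 1 and 2.

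The core proteins spanned a wide range of abundance. SDC4, syndecan 4, was the highest of the 10 in every library, at 83.8 to 199 FPKM, followed by GPC1, glypican 1, at 16.6 to 42.1 FPKM. In the blank group the order below these was SDC1 with a mean of 24.6 FPKM, HSPG2 with 8.27, GPC6 with 4.68, LUM with 3.95 and SDC2 with 2.06. GPC6 and LUM overlapped in that order and could not be ranked. BGN had a mean of 0.903 FPKM, VCAN of 0.312 and DCN of 0.00171. The ranges of BGN and VCAN also overlapped, but BGN was above VCAN within each blank library, in blank 1 from only 10 and 11 reads. Among these 10 genes, heparan sulfate proteoglycans of the cell surface therefore made up most of the summed FPKM, and the collagen-binding small proteoglycans little. Other core proteins, read further below, are not counted here, such as AGRN and CD44 with blank means of 61.3 and 31.2 FPKM.

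Of the tested core proteins, lumican gave the largest fitted change. LUM (ENSG00000139329, chromosome 12 from 91102629 to 91111831, minus strand) encodes lumican, a keratan sulfate proteoglycan that organizes collagen fibrils. It measured 2.97, 4.28 and 4.60 FPKM in the blank libraries and 0.207, 0.487 and 0.209 in OE-LINC01134, the latter from 18, 40 and 18 reads. All OE-LINC01134 libraries were below all blank ones, and their mean was 7.62% of the blank mean. On the log2(FPKM + 0.1) scale the fitted fold change was -3.38 (95% interval -4.17 to -2.60; limma adjusted p = 0.0199), so LUM fell in OE-LINC01134. Leaving out blank 1 or OE-LINC01134 2, the libraries that stood apart, gave -3.57 and -3.69 with adjusted p-values of 0.00998 and 0.00413. Over 17 alternative fits the adjusted p ranged from 0.00045 to 0.263 and passed in 11, and it missed without OE-LINC01134 1 (0.104), OE-LINC01134 3 (0.115), blank 2 (0.126) or blank 3 (0.148).

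The siRNA libraries held more LUM than OE-LINC01134 and less than blank. The levels were 1.45, 1.58 and 1.67 FPKM under siSRSF1-2 and 0.950, 1.86 and 1.60 under siSRSF1-3, with no overlap with the blank group in either. LUM fell under siSRSF1-2, with a log2 fold change of -1.26 (-1.70 to -0.83; limma adjusted p = 0.00586). Under siSRSF1-3 the value was -1.39 (-2.12 to -0.67), which missed the threshold at an adjusted p of 0.0657. The siRNAs did not differ by test, at -0.13 (-0.78 to 0.52; limma adjusted p = 0.708).

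BGN (ENSG00000182492, chromosome X from 153494939 to 153509554, plus strand), biglycan, a proteoglycan of bone and cartilage matrix, was too low to test. In the blank group it stood at 0.147, 1.19 and 1.37 FPKM, from 10, 83 and 110 reads, so replicate 1 was far below the other two. OE-LINC01134 had 1, 4 and 1 reads, siSRSF1-2 had 4, 7 and 8, and siSRSF1-3 had 18, 12 and 15. Only blank 2 and 3 exceeded 18 reads, and the siSRSF1-3 libraries had more than blank 1. DCN (ENSG00000011465, chromosome 12 from 91140484 to 91183123, minus strand), decorin, had 0 reads in 8 libraries and at most 4 in the others. A count of 0 allows up to 3 reads, or 0.00658 to 0.00919 FPKM in those 8 libraries, so decorin was not detectable at this depth in any of them.

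VCAN (ENSG00000038427, chromosome 5 from 83471465 to 83582303, plus strand) encodes versican, a large chondroitin sulfate proteoglycan of loose matrix. It was read 11, 201 and 210 times in the blank libraries, which gave 0.0268, 0.477 and 0.433 FPKM. OE-LINC01134 had 11, 0 and 3 reads, siSRSF1-2 had 3, 10 and 9, and siSRSF1-3 had 0, 0 and 12. As with BGN, blank 2 and 3 were far above all other libraries, and blank 1, with 11 reads, was just above the highest treated library, siSRSF1-3 replicate 3 with 0.0259 FPKM from 12 reads. A count of 0 allows up to 0.00740 to 0.0103 FPKM in the 3 libraries without a read. In the deposited FPKM all blank libraries were thus above all treated ones for VCAN. For blank 1 this order rested on the scaling, since it had 11 reads against 12 in siSRSF1-3 replicate 3, and other scalings were not examined for it. For BGN all blank libraries were above all OE-LINC01134 and siSRSF1-2 libraries but not above siSRSF1-3, with blank 1 resting on 10 reads.

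Among the syndecans, SDC1 had the largest change from blank under both siRNAs. SDC1 (ENSG00000115884, chromosome 2 from 20200797 to 20225433, minus strand) encodes syndecan 1, which is also shed from the cell surface by proteases. The blank libraries had 32.2, 20.5 and 21.3 FPKM, the siSRSF1-2 libraries 7.15, 6.51 and 5.91, and the siSRSF1-3 libraries 9.72, 9.53 and 6.73. Every siRNA library was below every blank library, with group means of 26.5% and 35.1% of blank. SDC1 fell under siSRSF1-2 by 1.87 on the log2 scale (limma adjusted p = 0.00242) and under siSRSF1-3 by 1.49 (adjusted p = 0.0498). Without blank 1 these values were -1.67 (adjusted p = 9.18e-05) and -1.28 (0.0926). The siSRSF1-3 call was the less stable, since it passed in 6 of 17 alternative fits with adjusted p-values from 0.00633 to 0.219, and was lost without any 1 library other than siSRSF1-3 replicate 3 (0.0878 to 0.219).

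In OE-LINC01134, SDC1 measured 16.8, 30.3 and 16.4 FPKM. Replicate 2 lay near blank 1 and the other two below all blank libraries, so the groups overlapped. The log2 fold change was -0.25 (-0.93 to 0.43; limma adjusted p = 0.604), and -0.54 (adjusted p = 0.132) without OE-LINC01134 2. Between siSRSF1-3 and siSRSF1-2 it was 0.39 (-0.05 to 0.83; adjusted p = 0.146), and -0.18 where every library was given an equal FPKM sum.

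SDC2 (ENSG00000169439, chromosome 8 from 96493351 to 96611780, plus strand), syndecan 2, is the syndecan typical of mesenchymal cells. It was low, with 2.87, 1.62 and 1.71 FPKM in blank, 0.829, 1.10 and 1.01 under siSRSF1-2 and 0.978, 0.954 and 0.848 under siSRSF1-3. Both siRNA groups were below all blank libraries. The log2 fold change was -0.97 under siSRSF1-2 (limma adjusted p = 0.0331), short of the fold required, and -1.03 under siSRSF1-3 (adjusted p = 0.0945). OE-LINC01134 had 1.08, 2.05 and 1.39 FPKM, which overlapped with blank (-0.43; adjusted p = 0.406).

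SDC4 (ENSG00000124145, chromosome 20 from 45325288 to 45348424, minus strand), syndecan 4, a component of focal adhesions, behaved differently from SDC1. It was at 87.8, 123.7 and 126 FPKM in blank, 88.4, 89.7 and 90.5 under siSRSF1-2, and 199, 129.7 and 130.4 under siSRSF1-3. The siSRSF1-3 libraries were above all blank and all siSRSF1-2 libraries, with replicate 1 far above the other two, and blank 1 was at the level of siSRSF1-2. None of the fold changes passed: -0.31 under siSRSF1-2 (limma adjusted p = 0.163), 0.43 under siSRSF1-3 (0.317), and 0.74 (0.24 to 1.25; 0.0819) between the siRNAs. OE-LINC01134 had 91.9, 83.8 and 92.2 FPKM, for a log2 fold change of -0.32 (adjusted p = 0.254).

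The SDC4 value under siSRSF1-3 depended on the scaling of the libraries, and was -0.01 where every library was given an equal FPKM sum. In that comparison the median of all genes moved from -0.01 in the deposited scaling to -0.26 with each library's own read total and -0.43 with equal sums. Relative to that median, SDC4 was 0.44, 0.43 and 0.41 higher under the 3 scalings and SDC1 was lower by values of -1.47, -1.49 and -1.50. Between the siRNAs equal sums gave 0.16 for SDC4 and 0.11 for GPC1, where the median of all genes was -0.57. With a smooth trend on gene length removed, SDC4 under siSRSF1-3 was at 0.25 against blank and 0.44 against siSRSF1-2. GPC1 was at 0.83 between the siRNAs by that measure.

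Under siSRSF1-2 the glypicans gave opposite signs. GPC1 (ENSG00000063660, chromosome 2 from 240435671 to 240468078, plus strand), glypican 1, a co-receptor for fibroblast growth factors, was at 42.1, 34.6 and 33.0 FPKM in blank and 17.8, 17.1 and 16.6 under siSRSF1-2. The groups did not overlap, and GPC1 fell by 1.08 on the log2 scale (limma adjusted p = 0.00219). Without blank 1 the change was -0.98 (adjusted p = 7.04e-05), just under the fold required. Under siSRSF1-3 the levels were 30.6, 29.6 and 23.2 FPKM, below all blank libraries but above all siSRSF1-2 libraries. The log2 fold change was -0.40 against blank (adjusted p = 0.222) and 0.69 against siSRSF1-2 (0.34 to 1.03; limma adjusted p = 0.0749). OE-LINC01134 held 22.5, 37.7 and 22.1 FPKM, where again replicate 2 was within the blank range (-0.45; adjusted p = 0.253). Without that replicate the change was -0.70 (adjusted p = 0.0190), still under the required fold.

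GPC6 (ENSG00000183098, chromosome 13 from 93226842 to 94407401, plus strand), glypican 6, known for its part in the growth of long bones, was the steadiest of the tested core proteins, with a highest level 1.67 times its lowest. It had 5.16, 4.57 and 4.29 FPKM in blank, 6.22, 5.88 and 6.46 under siSRSF1-2, and 7.18, 5.63 and 7.18 in OE-LINC01134. Both of these groups lay above all blank libraries. The log2 fold changes were 0.40 (limma adjusted p = 0.0259) and 0.50 (adjusted p = 0.108), neither past the required fold. Under siSRSF1-3 GPC6 had 4.71, 5.39 and 6.19 FPKM, overlapping with blank, at 0.21 (adjusted p = 0.457) and at -0.05 and -0.23 under the other 2 scalings.

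HSPG2 (ENSG00000142798, chromosome 1 from 21822245 to 21937297, minus strand) encodes perlecan, the large heparan sulfate proteoglycan of basement membranes. Of the 7 tested core proteins it had the widest ratio of highest to lowest FPKM within a group, under siSRSF1-3. It measured 11.2, 7.11 and 6.48 FPKM in blank, 6.65, 7.24 and 7.48 under siSRSF1-2 and 6.04, 8.23 and 6.55 in OE-LINC01134. These 3 groups overlapped, with log2 fold changes of -0.17 (limma adjusted p = 0.573) and -0.22 (adjusted p = 0.574). Under siSRSF1-3 it measured 0.434, 1.04 and 4.60 FPKM, from 154, 480 and 2595 reads. All were below every other library, but replicate 3 was more than 4 times replicate 2.

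The fitted HSPG2 change under siSRSF1-3 was -2.52 against blank (-4.27 to -0.77; limma adjusted p = 0.102) and -2.34 against siSRSF1-2 (-4.19 to -0.50; adjusted p = 0.0881), and neither passed. Without siSRSF1-3 replicate 3 they were -3.38 (adjusted p = 0.0112) and -3.21 (0.00213), which passed, and without replicate 1 they were -1.81 (0.182) and -1.64 (0.137). Gene length here is the length in the deposited table, which is shorter than the span of the printed coordinates. By that length HSPG2, at 18104 bases, is the longest of the 10 genes. Genes long by that measure were lower as a class in siSRSF1-3 replicates 1 and 2. Over the 1466 tested genes of more than 10000 bases, the median difference from the blank mean was -0.44, -0.39 and 0.03 on the log2 scale in siSRSF1-3 replicates 1, 2 and 3, where HSPG2 differed by -3.93, -2.83 and -0.79. After a smooth trend on gene length was removed, HSPG2 was at -2.20 against blank. Of the 1466 long genes, 1, HSPG2 itself, had a fold change as low in that comparison, and 167 of all 17538 tested genes did.

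**Figure D2:**
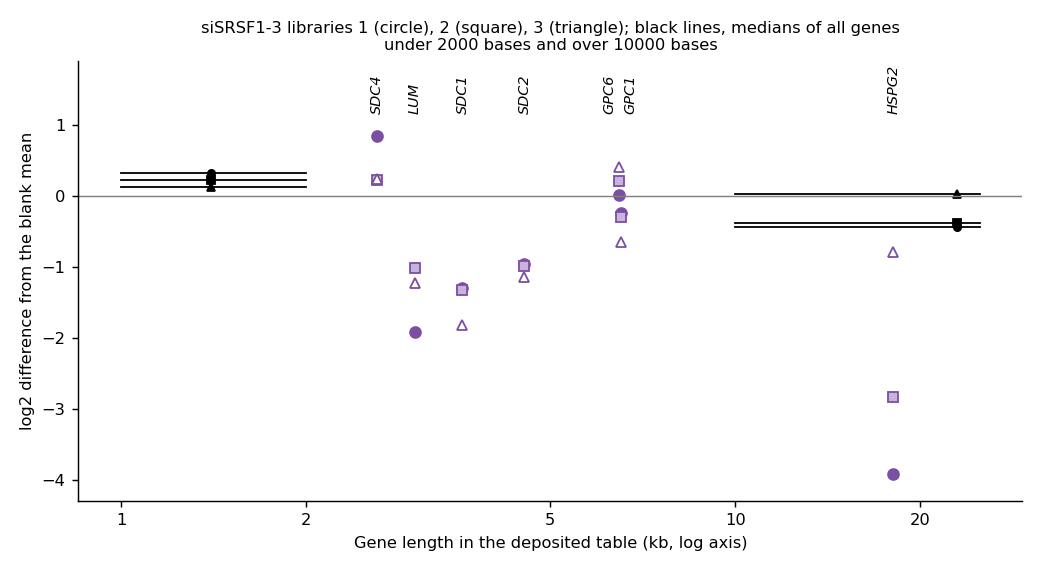
Log2 difference of each siSRSF1-3 library from the blank mean (vertical axis) for the 7 tested core proteins. The horizontal log axis is gene length in the deposited table, in kilobases. Filled circles, shaded squares and open triangles are replicates 1, 2 and 3. Black lines are the medians of all tested genes of up to 2000 bases and of more than 10000 bases: HSPG2 lay below the long-gene medians of -0.44, -0.39 and 0.03 in all 3 libraries.

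By comparison, 3 of the 7 tested core proteins (LUM, SDC1 and GPC1) passed as lower under siSRSF1-2 and 0 as higher. Of all genes tested, 2.73% were called lower and 2.22% higher. In 17 alternative fits SDC1 passed in 16, and LUM and GPC1 in 14 each. Under siSRSF1-3, SDC1 was called lower, 1 of 7, against 0.929% of all genes, and 0 of 7 were called higher against 0.331%. Where the fold was kept but p was left unadjusted (under 0.05), 4 of 7 were lower (LUM, SDC1, SDC2 and HSPG2) against 7.24% of all genes, and 0 were higher against 7.57%. In OE-LINC01134, LUM was 1 of 7 called lower against 0.593%, and 0 were called higher against 0.257%. Between siSRSF1-3 and siSRSF1-2, limma called 0 of 7 in either direction, against 0.0513% lower and 0.0342% higher, and HSPG2 alone was lower at an unadjusted p under 0.05 (7.42% of all genes, with 9.01% higher).

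Groups that did not overlap were common. Under siSRSF1-2, 4 of 7 core proteins were below all blank libraries and 1 above, where 24.2% and 25.3% of all genes were. Under siSRSF1-3 these were 5 below and 1 above, against 18.0% and 19.2%, and in OE-LINC01134 1 below and 1 above, against 13.8% and 16.8%. In siSRSF1-3 against siSRSF1-2, 1 was below and 2 above, against 27.6% and 27.0%. The median log2 fold change of the 7 was -0.97 under siSRSF1-2, -1.03 under siSRSF1-3 and -0.32 in OE-LINC01134, beside medians of 0.02, -0.01 and 0.05 over all genes. Between the siRNAs it was -0.07, beside -0.02. Averaging the near-identical libraries of a group left siSRSF1-2 with 1 replicate, so calls from that fit say nothing about these 7 genes in particular. There the genes that had passed under siSRSF1-2 were at -1.98 (SDC1), -1.17 (LUM) and -1.13 (GPC1).

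**Figure D3:**
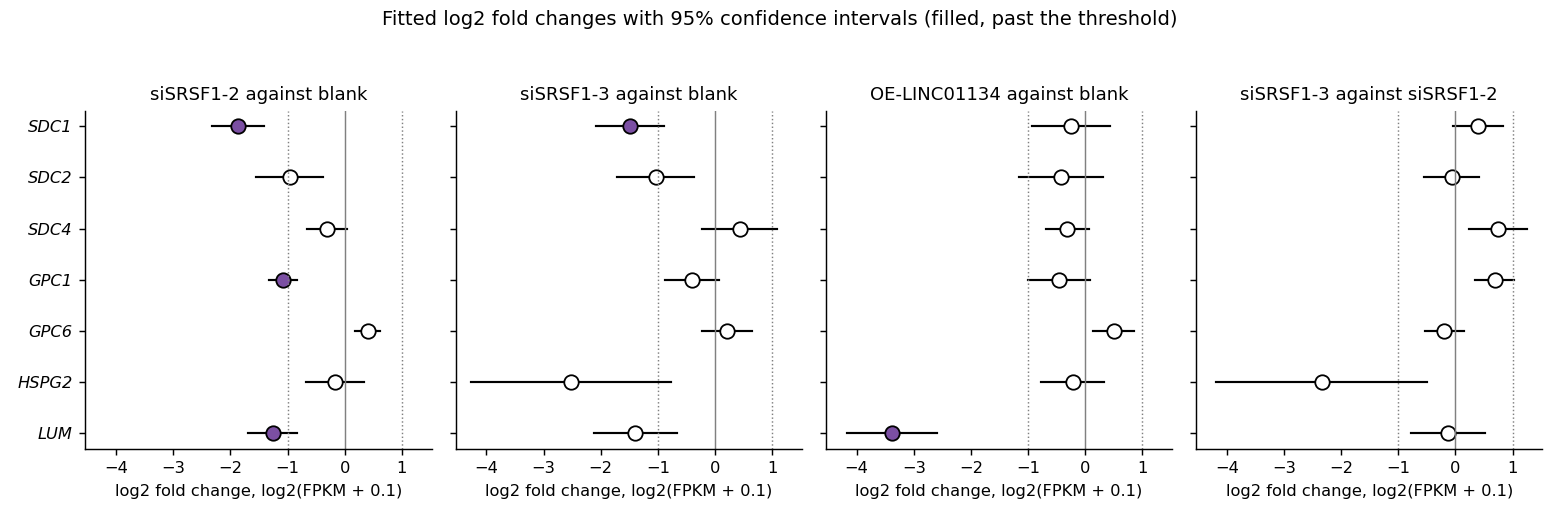
Fitted log2 fold change (horizontal axis, on log2(FPKM + 0.1)) with 95% confidence intervals for the 7 tested core proteins in the 4 comparisons. Filled points passed the threshold (LUM, SDC1 and GPC1 under siSRSF1-2, SDC1 under siSRSF1-3, LUM in OE-LINC01134), and dotted lines mark a log2 fold change of -1 and 1.

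The make-up of the pool of these 10 core proteins was also read within each library, where library scaling cancels. SDC4 supplied 47.6%, 62.5% and 63.3% of the summed FPKM of the 10 genes in blank and 63.1%, 49.8% and 63.1% in OE-LINC01134. Its share was 68.8%, 69.4% and 69.8% under siSRSF1-2 and 80.6%, 72.7% and 75.0% under siSRSF1-3. Every siRNA library thus had a larger SDC4 share than every blank or OE-LINC01134 library. A share also depends on the other genes of the sum. In the deposited scaling the sum was 185 to 199 FPKM in blank and 129 to 130 under siSRSF1-2, where SDC4 itself lay within the blank range. Under siSRSF1-3 the sum was 174 to 247 FPKM. SDC1 supplied 10.3% to 17.4% in blank, 11.2% to 18.0% in OE-LINC01134, 4.56% to 5.56% under siSRSF1-2 and 3.87% to 5.35% under siSRSF1-3.

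The ratio of SDC4 to SDC1 was 2.73, 6.04 and 5.93 in blank and 5.48, 2.77 and 5.62 in OE-LINC01134. Under siSRSF1-2 it was 12.4, 13.8 and 15.3, and under siSRSF1-3 20.5, 13.6 and 19.4. The siRNA libraries did not overlap with the others, while blank 1 and OE-LINC01134 2 were the lowest of the 12. The ratio of GPC1 to GPC6 was 8.15, 7.57 and 7.70 in blank and 2.86, 2.90 and 2.57 under siSRSF1-2. It was 3.13, 6.70 and 3.08 in OE-LINC01134 and 6.51, 5.49 and 3.75 under siSRSF1-3, all below blank. These ratios were not tested. In bulk libraries such as these, fewer cells that express a gene and less RNA per cell cannot be told apart.

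**Figure D4:**
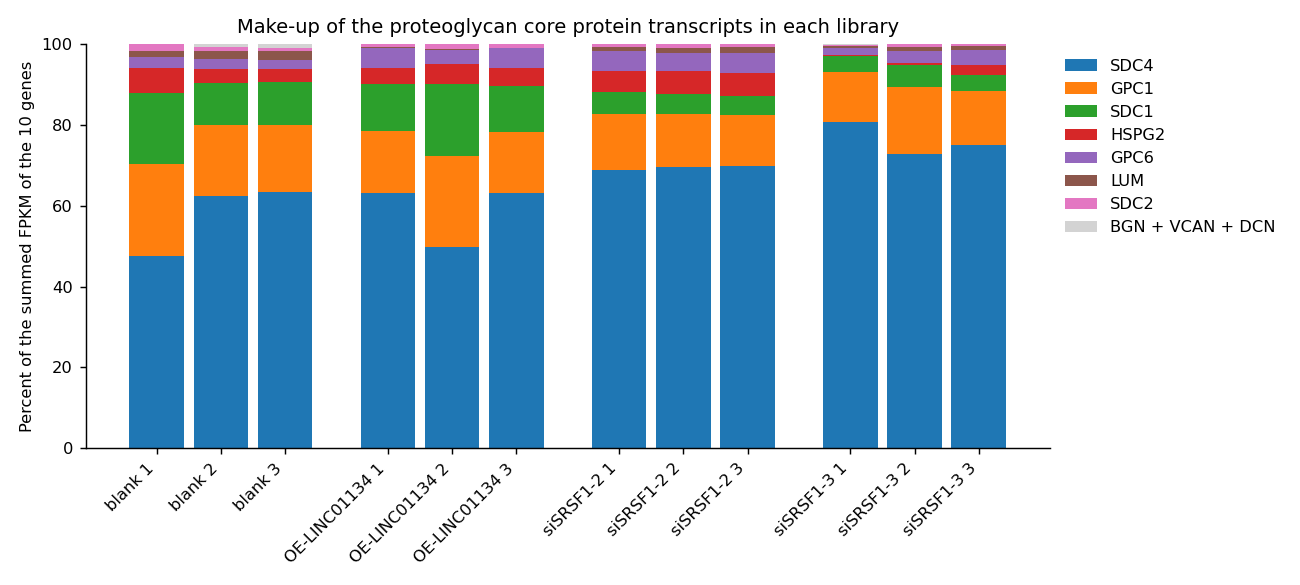
Share of each core protein gene in the summed FPKM of the 10 genes (vertical axis, percent) in each of the 12 libraries. SDC4 made up 47.6% to 63.3% in blank and OE-LINC01134 and 68.8% to 80.6% in the siRNA libraries, while the SDC1 share was 3.87% to 5.56% there.

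Genes that build, edit and break down the glycosaminoglycan chains, and other core proteins, were read as 11 lists with 136 gene symbols, of which 135 were found and 86 tested. Under siSRSF1-2, 9 of the 86 fell and 1 rose, under siSRSF1-3 4 fell and 1 rose, and in OE-LINC01134 and between the siRNAs 0 passed by limma. The shares that fell, 10.5% and 4.65%, stand beside 2.73% and 0.929% of all genes, and the share that rose, 1.16% under each siRNA, beside 2.22% and 0.331%. In OE-LINC01134 0.593% of all genes passed as lower and 0.257% as higher, and between the siRNAs 0.0513% and 0.0342%. Without siSRSF1-3 replicate 2, blank 2 or blank 3, 0 of all genes passed under siSRSF1-3, so each list call named for that siRNA was lost with 1 library left out, with adjusted p-values of up to 0.198 for ESM1 and up to 0.223 for the other 4. The median log2 fold change over the 86 was -0.18, -0.38 and -0.25 in the comparisons against blank. Of the 86, 33 were below all blank libraries under siSRSF1-2, 38 under siSRSF1-3 and 30 in OE-LINC01134, or 38.4%, 44.2% and 34.9%, beside 24.2%, 18.0% and 13.8% of all genes. Above all blank libraries were 20, 11 and 4, or 23.3%, 12.8% and 4.65%, beside 25.3%, 19.2% and 16.8% of all genes.

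Of the other core proteins, ESM1, a dermatan sulfate proteoglycan also called endocan, had the largest change under siSRSF1-3. Its levels were 9.31, 12.1 and 12.2 FPKM in blank, 3.38, 4.65 and 3.90 under siSRSF1-2 and 1.23, 1.52 and 1.78 under siSRSF1-3. ESM1 fell under both siRNAs, by 1.47 (limma adjusted p = 0.00284) and 2.82 (adjusted p = 0.0184) on the log2 scale. It was at 0.640, 5.61 and 0.766 FPKM in OE-LINC01134, where replicate 2 lay far above the other two (-2.87; adjusted p = 0.0885). GPC4, another glypican, fell under siSRSF1-2 by 1.29, as did CSPG5, a chondroitin sulfate proteoglycan, by 1.64, and the leucine-rich PODNL1 by 1.50. AGRN, agrin, a basement membrane heparan sulfate proteoglycan, had the highest mean of its list and measured 60.5, 63.4 and 59.9 FPKM in blank and 20.3, 35.1 and 42.5 under siSRSF1-3. The siSRSF1-3 libraries were all below blank, at -0.97 (adjusted p = 0.105). CD44, the hyaluronan receptor, which can carry chondroitin sulfate, was the most abundant of the other cell surface proteins and had -0.39, -0.77 and -1.29 under siSRSF1-2, under siSRSF1-3 and in OE-LINC01134, none past the threshold.

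Most enzymes of chain synthesis did not pass. Of 7 tested enzymes of the linker that joins chain to protein, with B3GAT3 the most abundant, 0 passed in any comparison. EXT2, a subunit of the heparan sulfate polymerase, had 35.1, 32.5 and 32.6 FPKM in blank and 11.02, 13.4 and 13.8 under siSRSF1-3, where it fell by 1.39 (limma adjusted p = 0.0377). It was the only 1 of 10 heparan sulfate enzymes to pass, and all 10 had a fold change below 0 in that comparison, with a median of -0.50. Under siSRSF1-2 EXT2 was at 24.9, 25.1 and 24.8 FPKM (-0.42; adjusted p = 0.00511).

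In the chondroitin and dermatan sulfate list, 2 of 13 fell under siSRSF1-2: CHST11, a chondroitin 4-sulfotransferase, by 1.13 and CHST14, which sulfates dermatan, by 1.30, a call lost without any 1 siSRSF1-2 library (adjusted p of up to 0.0595). CHST11 also fell under siSRSF1-3, by 1.17 (limma adjusted p = 0.0499). In OE-LINC01134 CHST11 had -1.27, which did not pass (limma adjusted p = 0.117). CHPF, part of the chondroitin polymerase and the most abundant of that list, had -0.65, -0.09 and -1.06 under siSRSF1-2, under siSRSF1-3 and in OE-LINC01134 and did not pass. Of 10 genes that supply sugar and sulfate donors, led by the sulfate donor transporter SLC35B2, 0 passed, nor did either tested gene that edits heparan sulfate outside the cell, of which NOTUM was the higher.

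Genes of core protein cleavage held both directions. MMP14, a membrane-bound metalloprotease, was at 36.2, 45.4 and 44.9 FPKM in blank, 16.0, 17.1 and 16.2 under siSRSF1-2 and 11.2, 18.5 and 17.4 under siSRSF1-3. It fell under both siRNAs, by 1.35 (limma adjusted p = 0.00122) and 1.45 (adjusted p = 0.0483). MMP2, gelatinase A, fell under siSRSF1-2 by 1.35 but had -0.44 under siSRSF1-3 (adjusted p = 0.193). In OE-LINC01134 MMP2 was below all blank libraries, at -1.48, and just missed the threshold (limma adjusted p = 0.0502). HTRA1, a secreted serine protease with proteoglycans among its substrates, was the only gene of the 86 to rise. It stood at 3.84, 6.31 and 5.98 FPKM in blank, 12.8, 11.8 and 11.4 under siSRSF1-2 and 28.2, 22.8 and 15.01 under siSRSF1-3, with log2 fold changes of 1.17 (adjusted p = 0.00904) and 2.00 (adjusted p = 0.0453). Without blank 1 the siSRSF1-2 value was 0.95, under the required fold.

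In the hyaluronan list, TNFAIP6, which modifies hyaluronan in the matrix, fell under siSRSF1-2 by 1.07 (limma adjusted p = 0.0406). With 1 library left out, that call was kept only when it was blank 1 (up to 0.126 without another library). The link protein gene HAPLN3, the most abundant, had -0.82 under siSRSF1-2, -0.40 under siSRSF1-3 and -1.51 in OE-LINC01134 (limma adjusted p = 0.0721), none past the threshold. Of 14 tested lysosomal genes of glycosaminoglycan breakdown, 0 passed in any comparison. Their median log2 fold change was 0.18 under siSRSF1-2, 0.32 under siSRSF1-3 and -0.10 in OE-LINC01134. It was the only list with a median above 0 under siSRSF1-2, and under siSRSF1-3 the linker enzymes (0.19) and the heparan sulfate editing genes (0.29) had one too.

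**Figure D5:**
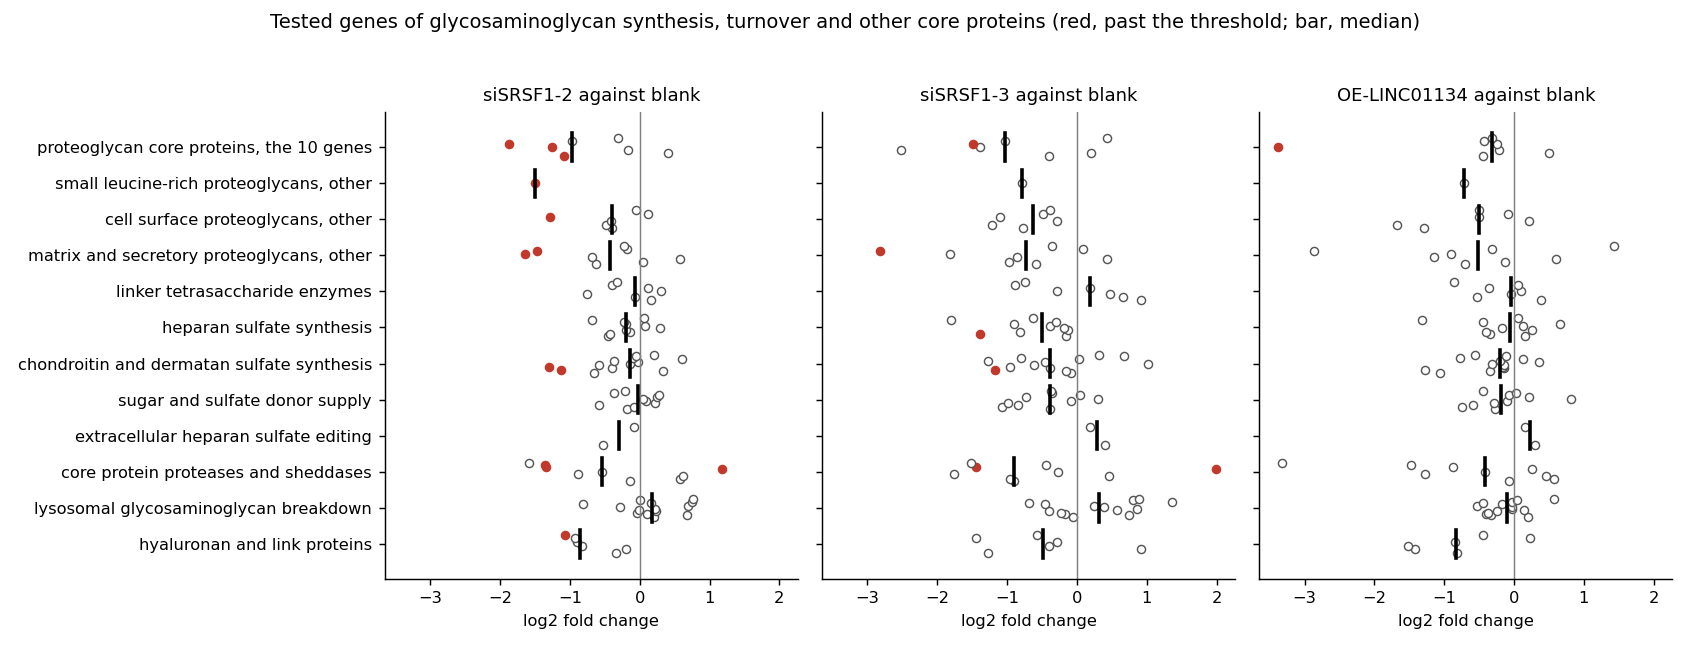
Log2 fold change against blank (horizontal axis) of each tested gene in the 10 core proteins and in 11 lists of related genes, by comparison, with red points past the threshold and a black bar at each list's median. Under siSRSF1-2 9 related genes were past the threshold as lower and 1, HTRA1, as higher, and in OE-LINC01134 0 were.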

How the data were processed

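RNA-Seq of 12 U2OS libraries was analysed from a gene table in which the authors deposited FPKM, with a gene length and coordinates. According to the study's supplementary methods, mRNA was selected with poly-T beads and read as 150 bp pairs, whereas the labels name another kit. The labels and their processing notes name mouse and its builds GRCm38 and mm10, but the genes are human, so the build of the coordinates, the aligner and the counter are not given in the sources used here. The table names groups by another name of SRSF1 (ASF), and was mapped to the labels accordingly. FPKM times length gave whole reads for 100% of values (within 0.01 read), and the library size implied by them was 0.712 to 1.09 times the reads on genes, lowest in siSRSF1-3 replicate 1, so the deposited values carry a further scaling.

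Values of log2(FPKM + 0.1) for 17538 genes (mean over libraries of 0.5 FPKM or more) were fitted per comparison of 3 and 3 libraries with limma 3.58.1 (lmFit, eBayes with a trend) in R 4.3.3, after a test on simulated data. Genes passed with a p, adjusted by Benjamini and Hochberg over all genes, under 0.05 where the log2 fold change exceeded 1 in size. Fold changes of low genes are understated on this scale. The voom fit on recovered reads called 454 genes higher and 528 lower under siSRSF1-2, 176 and 411 under siSRSF1-3, 101 and 247 in OE-LINC01134, and 56 and 54 between the siRNAs. Alternatives varied the pseudocount, filter, scaling, model, replicate block and libraries, and the averaging of near-identical libraries was added after seeing the data. Named genes were the 10 core proteins, SRSF1 and LINC01134 as checks, marker genes, list genes past the threshold, each list's most abundant gene, and the 2 genes nearest in profile to each core protein that passed. Limits from a count of 0 cover counting error only. The members and lists were chosen with earlier results of these data known. NDST2 matched 2 records and was left out, and the most abundant gene of 1 list is not reported here.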

Additional observations from a re-analysis of the deposited data

How the results depend on the processing

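Over the 4 comparisons, 511 of 560 recomputed member values kept their direction and side of the threshold. Values with the length trend removed were judged by whether they stayed within the spread, and 1 moved by more. Of the rest, 24 lost a call, 16 gained one and 8 changed sign. The cause of these shifts was not tested. A call could be lost only by a value that had passed. Of these, SDC1 under siSRSF1-3 passed in 6 of 17 alternative fits and LUM in OE-LINC01134 in 11, and those under siSRSF1-2 in 14 to 16. Under siSRSF1-2, 3 core proteins passed as lower, 2 to 4 with a library left out, 0 with near-identical libraries averaged (a lone library is then assumed to vary like the others), and without a minimum fold 1 (GPC6) passed as higher. There LUM was at -0.93 with a pseudocount of 1 and at an adjusted p of 0.0521 in 1 limma fit over all groups, and GPC1 at -0.95 with the same sum. Under siSRSF1-3, 1 passed as lower. This was 0 with a pseudocount of 0.01, no filter, the same sum, no trend, the replicate block or near-identical libraries averaged, 4 in 1 fit over all groups and at an unadjusted p, and 0 to 3 with a library left out. In OE-LINC01134, 1 passed as lower, and 0 with the replicate block, near-identical libraries averaged, or in some fits without a library (0 to 1). Between the siRNAs 0 passed, and 1 (HSPG2) in 1 fit over all groups and at an unadjusted p, and 0 to 1 with a library left out. Changes of sign were HSPG2 without blank 1, at 0.0668 under siSRSF1-2 (lowest with a library left out, -0.3252) and 0.0199 in OE-LINC01134 (lowest -0.3721), SDC4 at -0.0147 (same sum) and GPC6 at -0.0465 (own totals) and -0.23 (same sum) under siSRSF1-3, and between the siRNAs LUM at 0.13 without siSRSF1-3 1 (lowest -0.3149), SDC1 at -0.18 (same sum) and SDC2 at 0.0158 without siSRSF1-2 2 (lowest -0.1716). Same-numbered libraries correlated by -0.08 to 0.21, with 2 of 18 pairs over 0.1. No general pairing by number was seen, but where libraries were near-identical, as under siSRSF1-2, this check could hardly show a pairing. The replicate block lowered the count of all genes called lower from 479 to 381, from 163 to 0, from 104 to 3 and from 9 to 0. With near-identical libraries averaged, 0 of all genes passed in the siRNA comparisons and 1 in OE-LINC01134. Depth limited BGN, DCN and VCAN, which had at most 110, 4 and 210 reads.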

Other observations

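Blank 1 and OE-LINC01134 2, the libraries that stood apart from their groups, differed from them in the same direction for 5 of the 7 tested core proteins. The matching share of all tested genes was not computed, so this count says nothing about these genes in particular. On the log2 scale, SDC1 was 0.62 above the mean of the other blank libraries in blank 1 and 0.86 above its group in OE-LINC01134 2. GPC1 was 0.32 and 0.76 above, SDC2 0.75 and 0.70 above, HSPG2 0.72 and 0.38 above, and SDC4 -0.51 and -0.14, below. LUM and GPC6 went in opposite directions in the 2 libraries. All of these lay inside the range that held the middle 90% of tested genes, -1.20 to 0.90 in blank 1 and -1.02 to 1.10 in OE-LINC01134 2. BGN at -2.48 and VCAN at -2.13 in blank 1 lay outside it, and so did HSPG2 in siSRSF1-3 replicate 3, at 2.59 above the other two libraries of its group, where the range was -1.47 to 1.96.

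For the core proteins that passed in a comparison, the protein-coding genes with the most similar profile over the 12 libraries were listed by the root-mean-square difference of centred log2(FPKM + 0.1) values. The genes nearest to SDC1 were lactate dehydrogenase A (ENSG00000134333; 0.193), the enzyme that turns pyruvate into lactate, and noggin (ENSG00000183691; 0.272), a secreted inhibitor of bone morphogenetic proteins, where SDC1 itself varied by 0.844 about its mean. Lactate dehydrogenase A was at 216, 157 and 167 FPKM in blank, 97.4, 160.2 and 95.1 in OE-LINC01134, 44.0, 42.0 and 43.0 under siSRSF1-2 and 65.9, 69.9 and 57.3 under siSRSF1-3. GPC1, with a variation of 0.442, was nearest to calcium regulated heat stable protein 1 (ENSG00000153048; 0.111) and cathepsin C (ENSG00000109861; 0.133). LUM, with 1.25, was nearest to adducin 2 (ENSG00000075340; 0.315) and RASGEF domain family member 1A (ENSG00000198915; 0.339).

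Among the marker genes, VIM, vimentin, fell under siSRSF1-2 by 1.39 on the log2 scale (limma adjusted p = 0.00148). VIM was at 244, 181 and 195 FPKM in blank and 79.1, 79.1 and 77.3 under siSRSF1-2. It was at 68.7, 248 and 69.4 in OE-LINC01134 and 183, 171 and 79.4 under siSRSF1-3, and passed in neither. ALPL, the alkaline phosphatase of mineralizing cells, fell in OE-LINC01134 by 1.91 (limma adjusted p = 0.0402). That call was lost without OE-LINC01134 1, OE-LINC01134 3, blank 2 or blank 3 (0.179 to 0.206). ALPL was at 5.30, 5.73 and 5.94 FPKM in blank, 1.21, 2.22 and 1.09 in OE-LINC01134, 7.53, 7.87 and 7.55 under siSRSF1-2 and 12.9, 11.4 and 7.27 under siSRSF1-3. The overexpressing libraries were below and all siRNA libraries above all blank ones, while the sum of the osteoblast markers was lower under both siRNAs, and neither siRNA passed for ALPL (0.43 and 0.85; adjusted p = 0.00984 and 0.0995).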
